A study of Mus musculus with 474 samples.

Results

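The interferon response genes described here are 40 genes that cells switch on after type I or type II interferon, chosen by name, and all 40 were found among the 55450 genes of the deposited count tables. They span transcription factors (Stat2, Irf1, Irf7, Irf9), sensors of foreign nucleic acid, antiviral effectors, the ubiquitin-like Isg15 with its protease Usp18, and interferon-inducible GTPases. The cells were daughters of haematopoietic stem cells (HSCs), the blood-forming stem cells, taken from bone marrow of wild type male C57BL/6JRj mice aged 12 to 19 weeks. Each HSC was followed by time-lapse imaging through its first division in culture, and both daughters were picked by micromanipulator and sequenced by Smart-seq2, in which the whole length of polyadenylated transcripts of 1 cell per well is copied and read. The authors' metadata give the daughter with more lysosomes the label high and the daughter with fewer the label low, and no other treatment or genotype separates the groups. How that mark was set, and how many animals each culture experiment pooled, is not given in the sources used here.

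Complete sister pairs made up 85.7% of the listed cells, and the other 68 cells had no sequenced sister. The divisions came from 9 culture experiments. Run 4 held experiments 69, 74, 75, 76 and 77 with 12, 27, 33, 38 and 26 divisions, and run 5 held experiments 60, 68, 72 and 73 with 20, 17, 11 and 19 divisions. Total counts per cell ranged from 76735 to 2444858 with a median of 833354.5. Levels are given as CPM, counts scaled to a total of 1000000, of the summed paired cells of an experiment, and single reads are not independent molecules. Markers checked the labelled cell type: 7 of 8 HSC markers had counts, with Mecom in 100% and Hlf in 99.8% of cells. Ly6a was found in 97.8%, Fgd5 in 85.5%, Procr in 84.2%, Vwf in 65.8% and Slamf1 in only 27.6%. Of the markers listed for other cell types, C1qa, Cd3e, Cd8a, Ms4a1 and Irf8 were at 0 in every cell, and Adgre1, Cd4, Cdh5, Cd79a, Klrb1c and Siglech were found in 0.246% to 6.90% of cells. Others were common: Tcf4 was found in 100% of cells, Lyz2 in 99.5%, Pecam1 in 93.1%, Il3ra in 71.7%, Nkg7 in 24.4%, Csf1r in 21.4%, Kdr in 19.7% and Cd14 in 16.5%, and the member Bst2 is also on the plasmacytoid dendritic cell list. Hoxb5, an HSC marker, was also at 0, and so was B2m, which nearly all cells express, so a gene listed at 0 in these tables is not read as silent.

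As background, interferons bind receptors whose Janus kinases phosphorylate Stat2. Stat2 acts with Irf9 in a factor that binds the interferon-stimulated response element, ISRE, while interferon-gamma signals to genes through the interferon-gamma activated site, GAS. Many of the induced genes keep a low level without added interferon, and interferon is known to push quiescent HSCs into the cell cycle.

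Upstream sequences are shown for the 3 members whose levels were significantly alike between sisters (Irgm1, Ifi44, Lgals3bp), for Stat2, which came next, for Bst2, which correlated with Lgals3bp, and for Isg15, the textbook target. They come from RefSeq on GRCm38.p6, read 5′ to 3′ on the gene's strand and end at or before the base ahead of the RefSeq start. Stretches that GENCODE annotates as exon were left out, except for a site of 30 bases at Irgm1. Capitals mark matches to the ISRE core letters GAAANNGAAA on either strand, and neighbouring matches overlap.
Isg15, chr4:156200819-156201068, minus strand: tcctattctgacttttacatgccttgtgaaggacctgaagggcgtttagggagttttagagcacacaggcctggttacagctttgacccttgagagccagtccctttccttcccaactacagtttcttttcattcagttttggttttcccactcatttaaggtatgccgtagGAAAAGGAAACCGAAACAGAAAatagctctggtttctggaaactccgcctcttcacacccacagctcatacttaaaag
Stat2, chr10:128270248-128270497, plus strand: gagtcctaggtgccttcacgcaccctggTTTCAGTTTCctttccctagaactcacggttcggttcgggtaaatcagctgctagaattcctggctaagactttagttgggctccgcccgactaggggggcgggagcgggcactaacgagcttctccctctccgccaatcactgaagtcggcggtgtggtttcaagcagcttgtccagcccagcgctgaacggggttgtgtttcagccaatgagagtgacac
Bst2, chr8:71537473-71537722, minus strand: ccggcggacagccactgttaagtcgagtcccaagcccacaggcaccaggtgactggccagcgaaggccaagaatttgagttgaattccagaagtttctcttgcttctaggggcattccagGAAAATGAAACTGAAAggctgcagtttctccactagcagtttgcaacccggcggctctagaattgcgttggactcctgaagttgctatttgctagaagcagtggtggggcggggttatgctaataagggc
Irgm1, chr11:48871428-48871457, minus strand: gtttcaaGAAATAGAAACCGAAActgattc
Ifi44, chr3:151749961-151750160, minus strand: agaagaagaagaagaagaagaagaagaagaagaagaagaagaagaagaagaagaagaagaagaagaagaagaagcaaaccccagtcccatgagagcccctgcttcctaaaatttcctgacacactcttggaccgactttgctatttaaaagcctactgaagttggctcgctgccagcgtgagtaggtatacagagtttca
Lgals3bp, chr11:118402093-118402209, minus strand: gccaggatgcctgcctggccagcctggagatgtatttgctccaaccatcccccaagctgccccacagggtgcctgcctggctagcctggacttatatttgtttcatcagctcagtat

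Isg15 held 3 overlapping ISRE matches beginning 78, 72 and 66 bases before the start. Irgm1 held 2, beginning 30 and 24 bases before it, and Bst2 held 2, the farther beginning 130 bases before it. The single Stat2 match lay near the far end of its window. No match to these letters lay in the whole 250-base windows of Ifi44 and Lgals3bp. Of the members, 32 had an entry in the RefSeq promoter table, and 14 of these (43.8%) had an ISRE match in the 250 bases before a start. Over all genes of that table the share was 3.46%, or 2.98% of its 32851 windows of this length. The GAS letters TTCNNNGAA were matched in 7 of 32 members (21.9%) against 8.13% of all genes and 7.02% of all windows. These are matches of letters, not binding sites.

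The members ranged from near absence to presence in every cell. A count was found in at least 20% of cells for 30 members, in at least 50% for 25 and in at least 90% for 13. Lgals3bp, a secreted glycoprotein that binds galectin-3, had a count in 100% of cells, at levels from 179.97 CPM in experiment 72 through a median of 363.7 CPM to 445.4 CPM in experiment 74. Trim30a, a restrainer of NF-kappaB signalling, was found in 99.3% of cells at 54.7 to 81.8 CPM. Bst2 (tetherin, which holds budding virions at the membrane) was found in 98.3% at 59.4 to 82.9 CPM. Samd9l, which restrains growth of blood cells, was found in 97.5% at 55.3 to 116.7 CPM. Trim25, a ubiquitin ligase that acts on the RNA sensor RIG-I, was found in 97.04% at 51.9 to 80.6 CPM. These 5 were the members found in most cells, and each had counts in all 9 experiments.

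Levels of different genes are compared only per kilobase (kb) of exon. On that scale Lgals3bp had 117.9 CPM per kb and Bst2 77.7 CPM per kb, followed by Oas1a with 24.7, Ifi35 with 20.97 and Trim30a with 17.7 CPM per kb. Over the experiments the ranges of neighbours in this order overlap, except for those of Bst2 and Oas1a. Of the exon bases of Ifi35, 16.8% are shared with an overlapping gene, and of those of Rtp4 13.9%. Without stated strand use, such reads cannot be assigned with certainty. Oas1a, Trim30a, Gbp2, Gbp3 and the Ifit genes also have near-identical relatives, so their counts are uncertain in the same way.

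**Figure D1:**
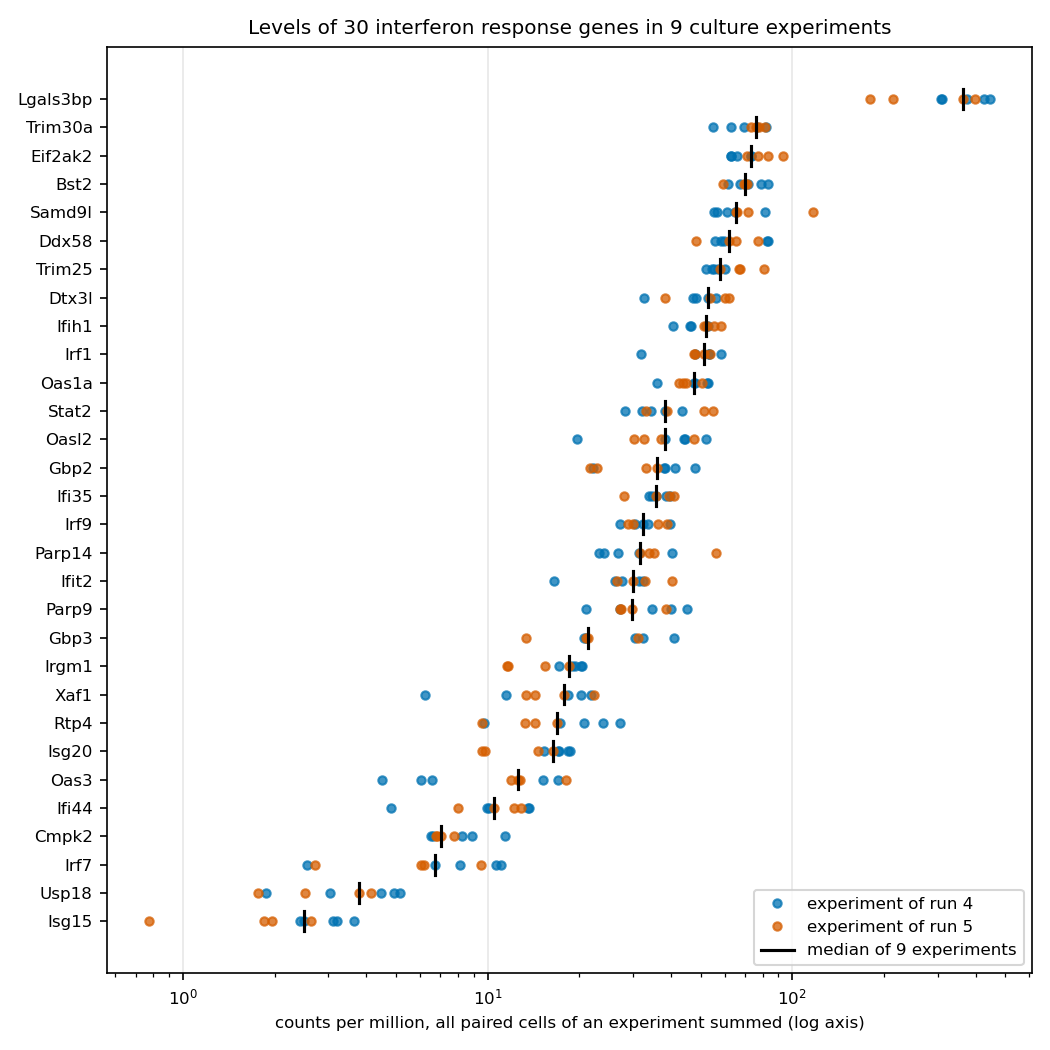
Each point is the level of 1 gene in 1 culture experiment, in CPM on a log axis, for the 30 members found in at least 20% of cells; colours give the sequencing run and black bars the median of 9 experiments. Lgals3bp, at the top, spans 179.97 to 445.4 CPM and Isg15, at the bottom, has a median of 2.50 CPM; the values are not divided by gene length.

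Detection differed within each role. Of the transcription factors, Stat2 was found in 87.7% of cells (39.4 ± 8.96 CPM, SD, n = 9 experiments), Irf1 in 88.9% (49.4 ± 7.49 CPM) and Irf9 in 75.1% (33.04 ± 4.41 CPM). Irf7, which itself is induced by interferon and then amplifies the response, was found in 34.2% of cells (7.08 ± 3.12 CPM). The sensors of cytosolic RNA were common: Ifih1 (MDA5) had a count in 92.6%, Ddx58 (RIG-I) in 95.6% and Eif2ak2 (PKR, which halts translation) in 96.6% of cells. Zbp1, a sensor of Z-form nucleic acid, was found in 11.6%.

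Close relatives differed widely. Among the oligoadenylate synthetases, which activate RNase L, Oas1a had a count in 95.6% of cells, Oas3 in 47.04% and Oas2 in 18.5%. Their relatives Oasl2 and Oasl1 were found in 81.3% and 12.1%. Ifit2 was found in 81.5%, while Ifit1, which binds foreign RNA, was found in 12.8% and Ifit3 in 3.20%. Isg15, which is attached to other proteins, was found in 32.3% (2.45 ± 0.86 CPM, SD, n = 9) and its protease Usp18 in 36.2% (3.52 ± 1.28 CPM). The partners Parp9 and Dtx3l were found in 85.7% and 95.8%, and the related Parp14 in 90.1%.

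The GTPases that act on pathogen vacuoles were Gbp2 in 74.4%, Gbp3 in 72.7%, Irgm1 in 95.1% and Igtp in 1.23% of cells. Of the other effectors, Ifi35 was found in 92.6%, Xaf1 (a partner of the apoptosis inhibitor XIAP) in 76.1%, the exonuclease Isg20 in 64.3%, Rtp4 in 59.9%, Ifi44 in 50% and the nucleotide kinase Cmpk2 in 39.2%. Rsad2 (viperin), the neighbour of Cmpk2 on chromosome 12, was found in 19.7%. The dynamin-like GTPases Mx2 and Mx1 were found in 7.64% and 0.739%, and Ifi203 had 2 reads in 1 cell.

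The 10 members found in under 20% of cells were spread thinly. No such transcript was found in 45.8% of cells, 1 of the 10 in 31.5%, 2 in 14.3%, 3 in 6.40%, 4 in 1.48% and 5 in 0.493% of cells. No cell held more than 5 of them.

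Between experiments the highest level of a member exceeded the lowest 2.03-fold at the median over 30 members, against 1.91-fold over all 11699 genes found in at least 20% of cells. None of these 30 members was higher in all experiments of 1 run than in all of the other. Over all genes that held for 1.03% (run 5 higher) and 2.14% (run 4 higher).

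High and low lysosome sisters were compared on counts summed per experiment and label, with the experiment as block. No member passed. Of the 36 members with enough counts for edgeR's quasi-likelihood test, 0 had an adjusted p under 0.05, and 0 of all 12899 genes tested did (0%), with a smallest adjusted p of 0.9996 among the members. By unadjusted p, 4 members were under 0.05 (11.1%), against 4.21% of all genes. All 4 were higher in high sisters, for which the share of all genes was 2.19%. The fitted difference was above 0 for 26 of 36 members (72.2%) and for 49.8% of all genes, with medians of 0.09 and 0.00 on the log2 scale. Without experiment 77 these shares were 58.3% and 49.3%. DESeq2 called 0 of 36 members and 4 of the 12899 genes (0.031%); 6 members had an unadjusted p under 0.05, as did 6.03% of all genes. On the differences between sisters limma called 0 of 30 members and 0 of 11699 genes (0%). There 3 members had an unadjusted p under 0.05, as did 5.78% of all genes. The difference was above 0 for 70% of members and 58.9% of all genes. This limma fit had no term for experiment and counted divisions of 1 culture separately. Its p-values and standard errors therefore do not carry the spread between cultures.

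The 6 members with the smallest p in the edgeR fit were the following. Isg20 ranged from 11.01 through a median of 18.5 to 24.8 CPM over the 9 experiments in high sisters and from 4.99 through 12.9 to 18.7 CPM in low sisters. The ranges overlap, and high was above low in 8 of 9 experiments; the log2 difference was 0.54 ± 0.19 (SE; edgeR unadjusted p = 0.0124). It was 0.35 with all labelled cells and 0.21 ± 0.22 (SE) by limma on the differences between sisters. Oasl2 ranged from 27.6 through 46.9 to 60.9 CPM in high and from 10.1 through 32.9 to 47.5 CPM in low sisters. Its high value was also the higher in 8 of 9 experiments, with overlapping ranges and a log2 difference of 0.44 ± 0.16 (SE; edgeR unadjusted p = 0.0133), which was 0.62 in run 4 alone and 0.22 in run 5 alone.

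Oas2, found in few cells, ranged from 1.87 through 7.32 to 10.7 CPM in high and from 0 through 2.63 to 4.55 CPM in low sisters. It was higher in high sisters in 8 of 9 experiments, and its log2 difference of 1.60 ± 0.57 (SE; edgeR unadjusted p = 0.0145) rests on 1359 reads in 18.5% of cells. Rtp4, which helps chaperone receptors to the membrane, ranged from 12.7 through 18.4 to 32.03 CPM in high and from 2.86 through 13.8 to 22.9 CPM in low sisters. High exceeded low in 8 of 9 experiments here too, by 0.67 ± 0.25 on the log2 scale (SE; edgeR unadjusted p = 0.0174).

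Lgals3bp ranged from 174.99 through 367.4 to 442.02 CPM in high and from 177.2 through 349.8 to 455.4 CPM in low sisters. The ranges coincide, and the log2 difference was 0.12 ± 0.06 (SE; edgeR unadjusted p = 0.0597), with high above low in 7 of 9 experiments. It was 0.08 without experiment 60, 0.07 in run 4 alone, 0.18 in run 5 alone and 0.18 by limma on the differences between sisters. Irf9 ranged from 23.5 through 37.4 to 47.5 CPM in high and from 14.5 through 28.6 to 42.6 CPM in low sisters, a log2 difference of 0.38 ± 0.19 (SE; edgeR unadjusted p = 0.0663) with high above low in 6 of 9 experiments; without experiment 69 it was 0.23. After adjustment over all genes, none of these 6 differences was distinguishable from the spread between experiments.

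**Figure D2:**
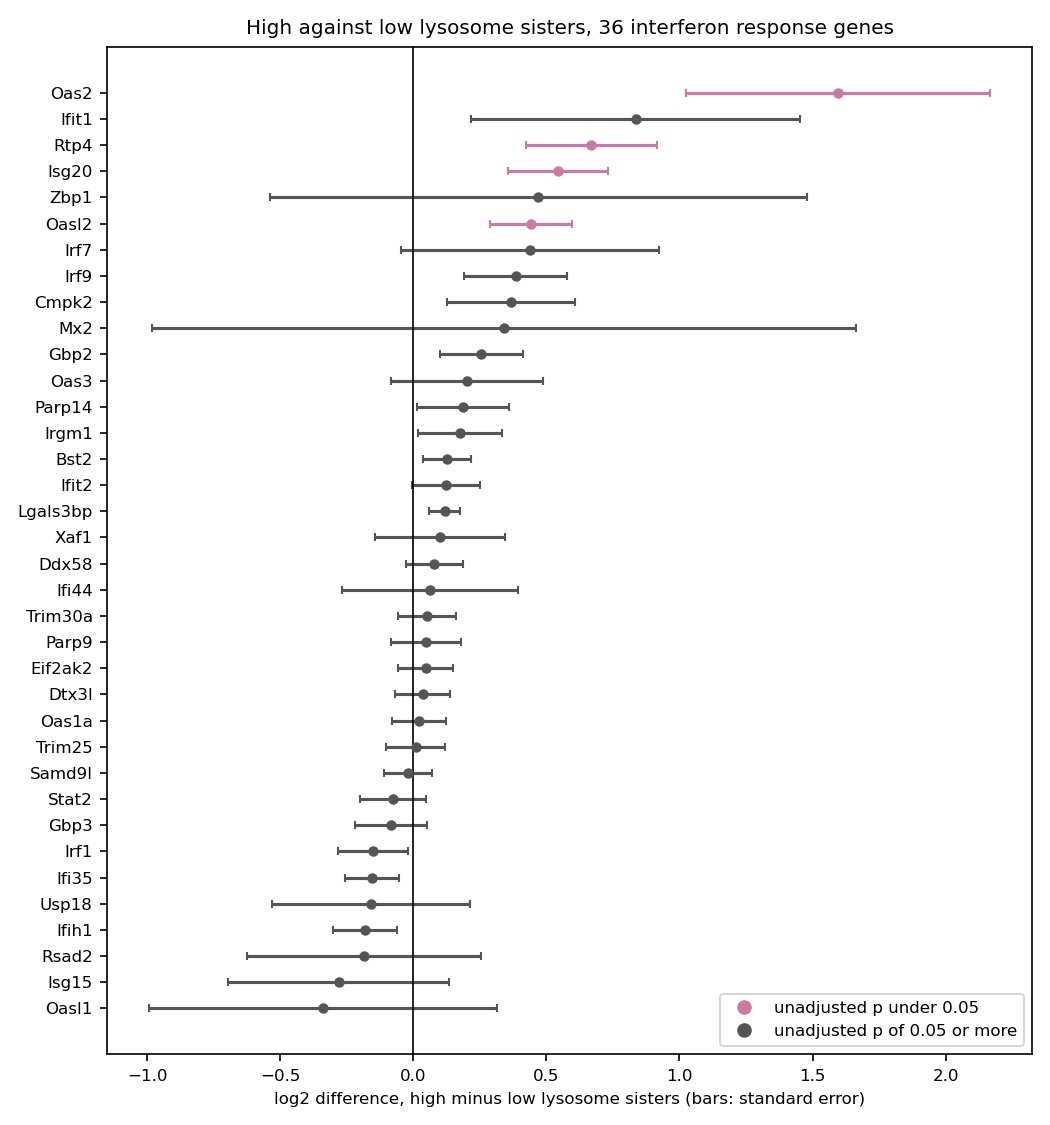
Log2 difference between high and low lysosome sisters (x axis; points: fitted value, bars: standard error, 9 experiments) for the 36 members tested, ordered by value. The 4 members coloured as having an unadjusted p under 0.05 (Oas2, Rtp4, Isg20, Oasl2) all lie above 0; none passes after adjustment.

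Of the other transcription factors, Irf7 had a log2 difference of 0.44 ± 0.49 (SE), Stat2, which acts with Irf9, one of -0.08 ± 0.12 and Irf1 one of -0.15 ± 0.13. Isg15 had -0.28 ± 0.42 and its protease Usp18 -0.16 ± 0.37 (SE). Among the 13 members found in at least 90% of cells the estimates ran from -0.18 ± 0.12 for Ifih1 and -0.16 ± 0.10 for Ifi35 to 0.18 ± 0.16 for Irgm1 and 0.19 ± 0.17 for Parp14 (SE).

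A score per cell, the mean log2(CPM + 1) of the 30 members found in at least 20% of cells, was 0.12 ± 0.14 higher in high than in low sisters (SD over 9 experiments). The experiments ran from -0.12 in experiment 74 through a median of 0.21 to 0.27 in experiment 69, and 7 of 9 were above 0. Over all genes found in at least 20% of cells the same difference was 0.04 ± 0.10 (SD). The high sister had the higher score in 55.7% of divisions. Within run 4 the score difference was 0.11 and within run 5 it was 0.14. High sisters had 67.6 ± 277.96 more detected genes (SD, n = 9 experiments) and -0.07 ± 0.17 log2 total counts; their part in the score was not tested beyond a correction for both, which left 0.11 ± 0.14. The high-low difference itself differed between runs for 0 of 36 members after adjustment (0 of 12899 genes, 0%; edgeR interaction), and 3 members had an unadjusted p under 0.05. Over all genes 4.65% had one. The smallest belonged to Ddx58, whose high minus low log2 difference was 0.54 ± 0.16 larger in run 5 than in run 4 (SE; edgeR adjusted p = 0.977).

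Likeness of sisters was measured by the intraclass correlation, the share of the variance of log2(CPM + 1) that lies between divisions once experiment and plate means are removed. A value of 0 means that sisters are no more alike than unrelated cells of their plate. It was tested by an F test over divisions for the 11699 genes found in at least 20% of cells. Divisions of 1 culture count separately there, so these p-values do not carry the spread between cultures. An exact sign-flip permutation test over the 9 experiments called 0 members and 0% of all genes after adjustment. The smallest p it can give, 0.0039, became 0.0502 after adjustment, so it could call no gene here. At an unadjusted p under 0.05 it had 4 members and 23.7% of all genes.

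Few members were significantly alike between sisters. The test was passed by 3 of 30 members (10%), against 26.4% of all genes, and they were Lgals3bp, Irgm1 and Ifi44. The median over the 30 members was 0.0901, against 0.0858 over all genes. The intraclass correlation was above 0 for 23 of 30 members and 81.9% of all genes. Without experiment 75 none of these 3 passed, and Ifih1 and Samd9l did. None of the 30 members exceeded 0.2, while 17.9% of all genes did. Ifit1, which is not among the 30, had 0.234 when genes found in at least 10% of cells were kept. Among genes found in 95% of cells or more, 2 of 10 members and 31.9% of genes passed; among those found in 20% to 50% of cells, 0 of 5 members and 17.9% of genes passed.

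Lgals3bp had the highest value of the 30 members, 0.195 (95% interval 0.0575 to 0.325, adjusted p = 0.0152 by the F test). In the 100 cells highest in Lgals3bp for their plate the mean was 551.1 CPM, and in their sisters it was 415.5 CPM. In the 100 lowest cells it was 157.4 CPM, and in their sisters 296.7 CPM. The value was above 0 in 8 of 9 experiments, 0.334 within run 4 (adjusted p = 0.000487) and 0.0529 within run 5 (adjusted p = 0.568). Without experiment 75 it was 0.164 (adjusted p = 0.0659), and without experiment 77 it was 0.165 (adjusted p = 0.0570), so either experiment decides the call.

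Irgm1, a GTPase of vacuoles and autophagy whose loss is known to make HSCs cycle too much, followed with 0.193 (95% interval 0.0560 to 0.324, adjusted p = 0.0159). Its 100 highest cells had a mean of 33.6 CPM and their sisters 18.6 CPM, while its 100 lowest cells had 4.31 CPM and their sisters 15.5 CPM. It was found in both sisters in 91.6% of divisions, in 1 sister in 6.90% and in neither in 1.48%. Non-sister cells in adjacent wells of the same plate correlated at 0.119 (46 pairs in run 5, the others in run 4), beside 0.166 for sisters, whereas Lgals3bp gave 0.0197 for such neighbours and 0.168 for sisters. The call for Irgm1 was lost without experiment 60 (0.168, adjusted p = 0.0508), 75 (0.155, adjusted p = 0.0803) or 77 (0.150, adjusted p = 0.0821), and in run 5 alone (0.164, adjusted p = 0.296).

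Ifi44, an interferon-induced protein of the cytoplasm, had 0.186 (95% interval 0.0486 to 0.317, adjusted p = 0.0203). It was found in both sisters in 56 divisions, in 1 in 91 and in neither in 56. Its 100 highest cells had a mean of 42.2 CPM and their sisters 19.3 CPM, and the sisters of its 100 lowest cells had 11.6 CPM. Its call was lost without experiment 75 (0.146, adjusted p = 0.0979), when cell cycle scores were regressed out (0.126, adjusted p = 0.169) and when only presence or absence was scored (0.0898, adjusted p = 0.328). Neither run passed alone, with 0.143 in run 4 (adjusted p = 0.145) and 0.281 in run 5 (adjusted p = 0.0792).

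The next 5 members did not pass the F test over divisions. Stat2 had an intraclass correlation of 0.153 (adjusted p = 0.0561), Parp14, a mono-ADP-ribosyltransferase, 0.144 (adjusted p = 0.0698) and its neighbour gene Dtx3l, a ubiquitin ligase, 0.143 (adjusted p = 0.0722). Ifih1 had 0.139 (adjusted p = 0.0792) and Trim30a 0.117 (adjusted p = 0.129). For Ifih1, non-sister cells in adjacent wells correlated at 0.175, above the 0.112 for sisters. For Stat2, Parp14, Dtx3l and Trim30a the value of such neighbours was below that of sisters. At the other end, Irf9, Irf1, Irf7 and Parp9 had -0.0283, -0.0400, -0.0513 and -0.0651. For Irf9 the 100 highest cells had a mean of 91.5 CPM and their sisters 33.6 CPM, and the sisters of the 100 lowest cells had 35.1 CPM. Over the 30 members the upper limit of the 95% interval ran from 0.0749 for Parp9 to 0.325 for Lgals3bp.

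Genes outside the members that were known from earlier results on these cells to be shared by sisters give the scale. Ifi27, itself interferon-inducible, had 0.806 (95% interval 0.751 to 0.850), and the membrane proteins Ifitm1 and Ifitm3, which block viral entry, had 0.627 (0.535 to 0.705) and 0.511 (0.401 to 0.607). The lower limits of all 3 lie above the upper limit of each of the 30 members. Because the 3 were picked as genes known to be shared, that gap follows from the choice. It is not a test of the members against other interferon-inducible genes. The HSC surface marker Ly6a had 0.590 and the mitotic kinase Plk1 0.834.

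**Figure D3:**
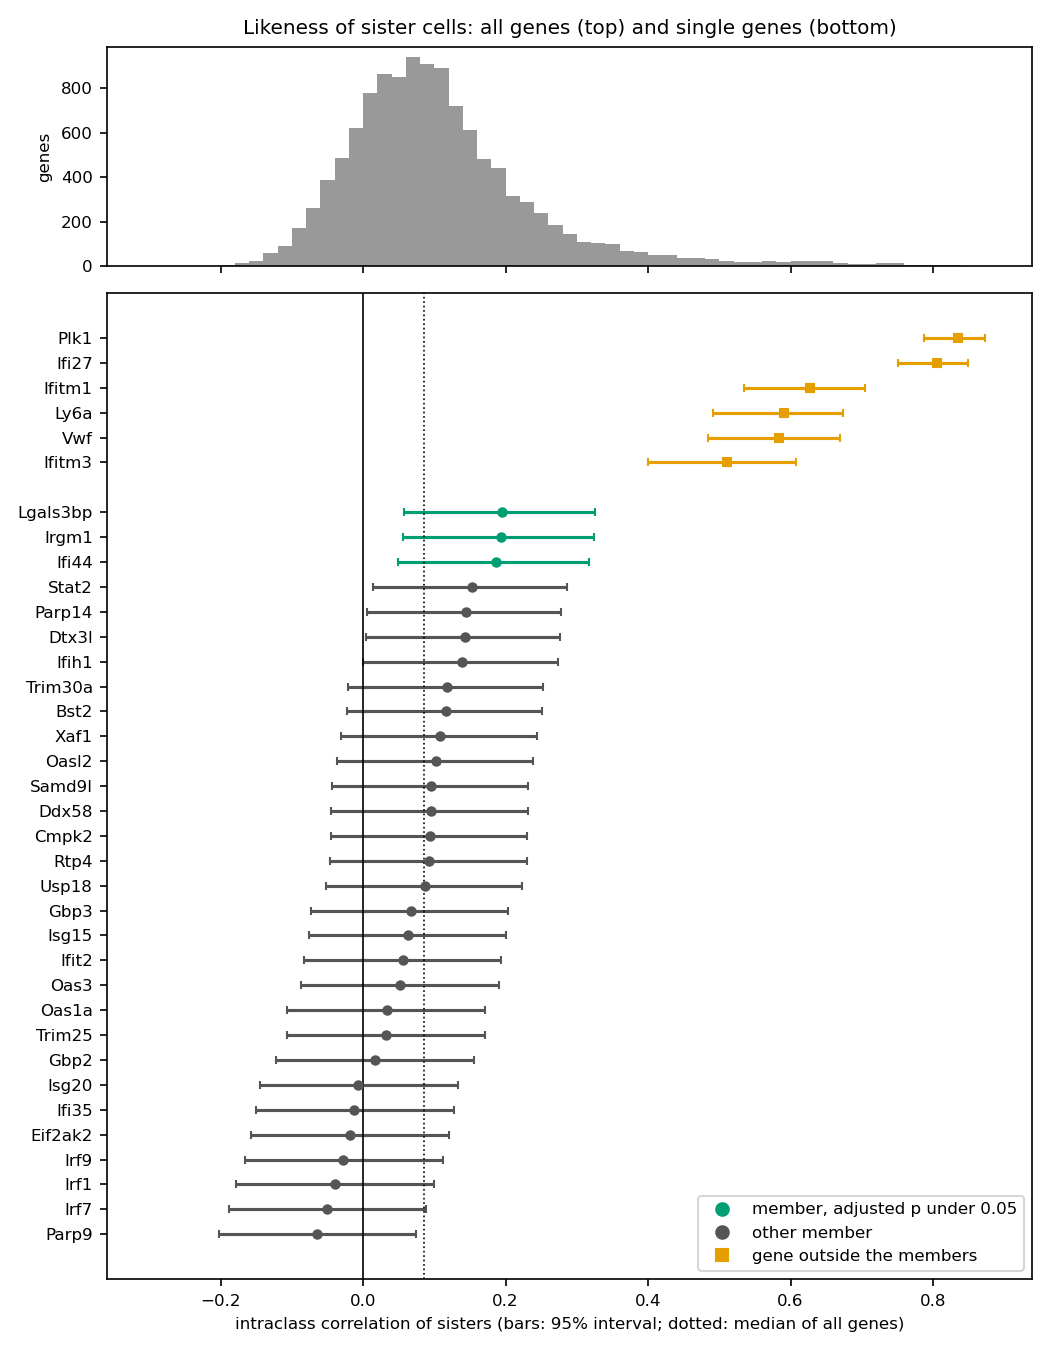
Top: intraclass correlation of all 11699 genes (x axis) by number of genes. Bottom: the 30 members (circles; green with an adjusted p under 0.05) and 6 genes outside them (squares), with 95% intervals. The members lie between -0.0651 and 0.195, around the all-gene median of 0.0858, and the squares lie between 0.511 and 0.834.

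The score was also described by its likeness between sisters. The intraclass correlation of the score was 0.234 (95% interval 0.0984 to 0.361), with a standard deviation of 0.299 between divisions and 0.541 between the sisters of a division. By experiment it ran from -0.152 in experiment 68 through a median of 0.321 to 0.411 in experiment 72. It was 0.296 within run 4 and 0.127 within run 5. A mean over many genes is not on the scale of single genes, and no like value for other genes is given here. The score's value is therefore not read as particular to these members. Without correction for the removed means, the score correlated at 0.207 between sisters and at -0.0821 between adjacent cells from different divisions. The 41 cells with the highest scores for their plate occurred in all 9 experiments; both sisters were among them in 4 divisions and 1 sister alone in 33.

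**Figure D4:**
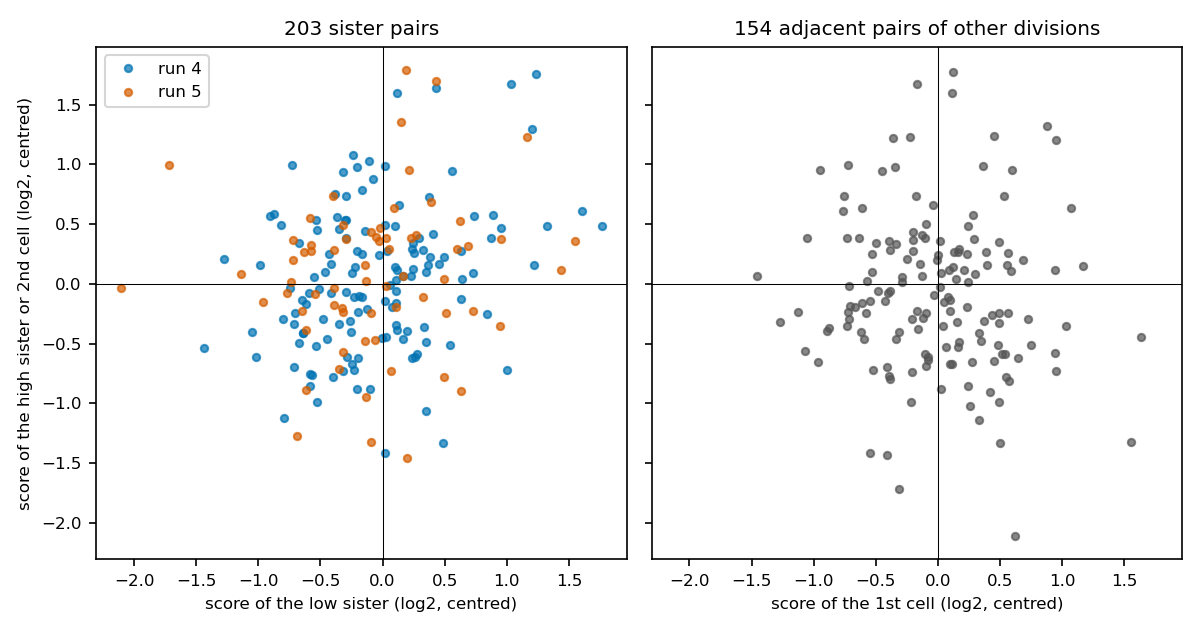
Interferon gene score, mean log2(CPM + 1) of 30 members minus the mean of its experiment and plate, of 2 cells against each other. Left: sister pairs, low sister on x and high sister on y, coloured by run (correlation 0.207); right: pairs of adjacent cells from different divisions (correlation -0.0821).

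Co-expression was weak but mostly of 1 sign. Over the paired cells the pairs of the 30 members had a median Pearson correlation of 0.077, against 0.025 over all pairs of genes, and 86.9% of pairs were above 0, against 64.3%. Correlations over 0.2 were found in 13 pairs (2.99%), against 2.17% of all pairs. The median over division means was 0.0898 (all genes 0.0312), and over the differences between sisters 0.0563 (all genes 0.0191). All these values are descriptions over cells that share library depth. Regressing out total counts and detected genes left a median of 0.0666, for which no like value over all genes is given here.

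The highest pair was Rtp4 with Ifi44, at 0.293. Both were found in 36.2% of cells, Rtp4 alone in 23.6%, Ifi44 alone in 13.8% and neither in 26.4%. Ifi44 had a mean of 19.9 CPM in the 100 cells highest in Rtp4 for their plate and 9.91 CPM in the 100 lowest. Bst2 with Lgals3bp followed at 0.258, with a mean of 362.6 CPM of Lgals3bp in the 100 cells highest in Bst2 and 307.4 CPM in the lowest. Irf9 with Irgm1 stood at 0.249, with a mean of 24.1 CPM of Irgm1 in the cells highest in Irf9 and 14.6 CPM in the lowest.

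Oasl2 with Xaf1 stood at 0.244, with Xaf1 at 26.7 CPM and 12.6 CPM in the cells highest and lowest in Oasl2. Irgm1 with Lgals3bp stood at 0.241 and Oasl2 with Rtp4 at 0.235. These 6 pairs were above 0 within each run, from 0.157 to 0.360, and also over the differences between sisters, from 0.140 to 0.248. The pairs were chosen as the highest over these same cells, so values in parts of those cells are not an independent check. None of the 6 pairs lies close together in the genome. Irgm1 and Lgals3bp share chromosome 11 but start 69531 kb apart. The 5 pairs of members starting within 1000 kb of each other had a median of 0.0940.

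Rtp4, Oasl2, Ifi44 and Xaf1 followed the score of the other members most closely, with correlations of 0.387, 0.372, 0.372 and 0.348. At the other end Ifit2 had 0.018 and Isg20 0.0967. Ifit2 had the lowest pair of all, -0.115 with Trim25. Irf7 and Stat2, which drive the response, had 0.221 and 0.259. Members with an ISRE match in the 250 bases before the start had a median correlation with the others' score of 0.263 and a median intraclass correlation of 0.0666 (9 of 14 measured). For members without a match these medians were 0.229 and 0.0939 (17 of 18 measured). The sets also differed in detection, with a median of 59.9% of cells for the 14 with a match and 85.2% for the 18 without. The part of detection in these medians was not tested.

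**Figure D5:**
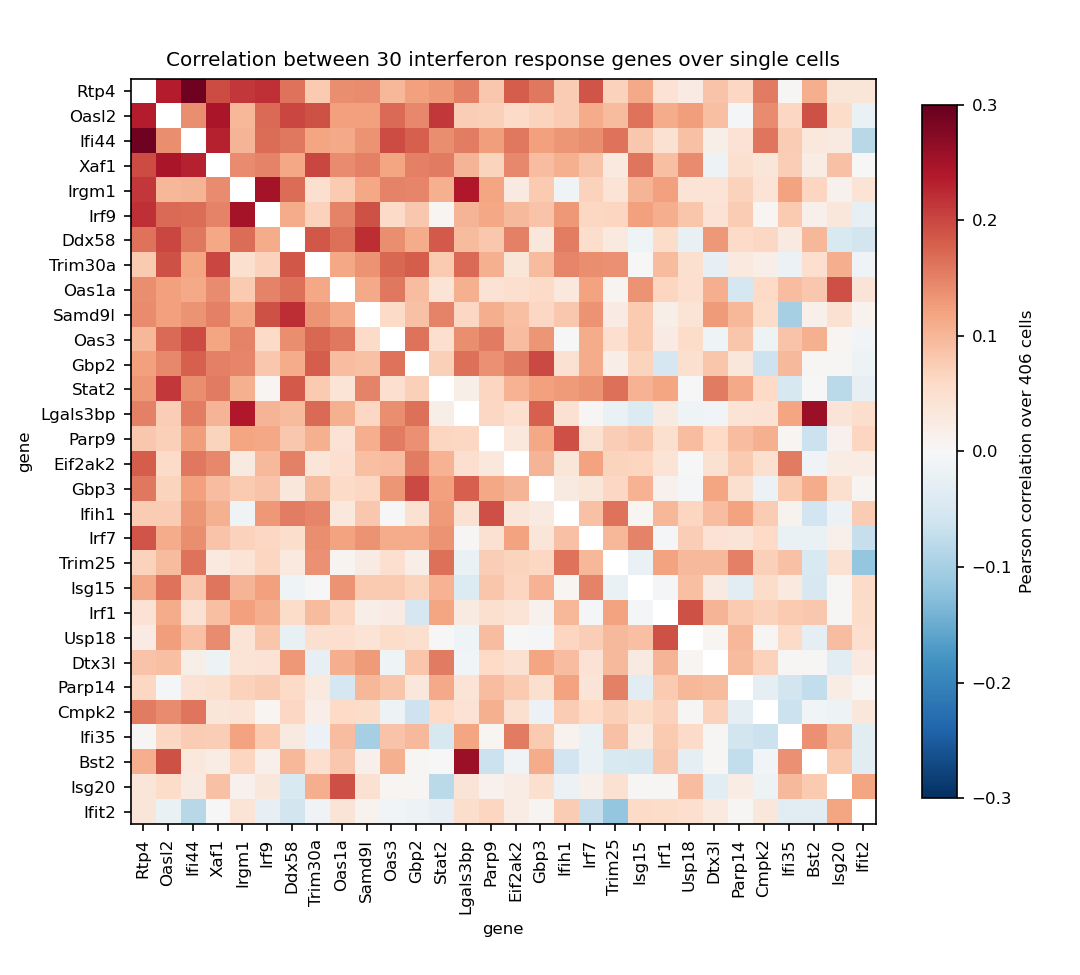
Pearson correlation of each pair of 30 members over the paired cells after centring on experiment and plate (colour, -0.3 to 0.3), ordered by correlation with the score of the other members. Red fields gather at the top left, among Rtp4, Oasl2, Ifi44 and Xaf1, and the lower rows, down to Ifit2, are near 0.

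The score moved with other features of the cells, described over the paired cells after centring. It correlated at 0.278 with the number of detected genes and at 0.133 with log2 total counts. With the mean of a G1/S list (19 of 20 genes with counts) it correlated at -0.194, and at -0.379 once total counts and detected genes were regressed out. With the mean of 20 G2/M genes the values were -0.180 and -0.352, and with the HSC markers 0.360 and 0.348. The HSC list includes Ly6a, which alone gave 0.248 and 0.292. Of the pathway lists taken up below, antigen genes gave 0.3595 and 0.319, and receptors and kinases 0.355 and 0.304. Sensors and adaptors gave 0.336 and 0.235, other factors 0.329 and 0.272, and restrainers 0.129 and 0.0582. Markers of endothelium gave 0.151 and 0.117, and those of B cells 0.0960 and 0.1095. Markers of macrophages and monocytes gave 0.204 and 0.167, and those of T and natural killer cells -0.0350 and -0.0844. Of the 5 macrophage and monocyte markers 4 had counts: Lyz2 in 99.5% of cells, Csf1r in 21.4%, Cd14 in 16.5% and Adgre1 in 6.90%, with C1qa at 0. Their summed level was 119.7 to 284.9 CPM over the experiments in high sisters and 123.8 to 254.5 CPM in low sisters, and its part in the score was not tested. With cell cycle scores regressed out, the score's intraclass correlation was 0.188, and 2 members and 11.7% of all genes passed the F test. With total counts and detected genes regressed out it was 0.284, and 3 members and 22.6% of all genes passed.

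Other genes of the pathway were read from the same 2 fits. Their counts in the F test between sisters stand beside the 26.4% of all genes that passed it. The sign-flip test over experiments called none of them, but it could call no gene in these data. The ligand list, interferon genes with interferon-induced cytokines and chemokines, had 19 of 23 genes at 0, among them Ifng, Cxcl9 and Cxcl10; Ifnb1 was found in 0.493% of cells and Il15 in 91.9%. Of receptors and kinases, Ifnar1, Ifnar2 and Ifngr1 were found in 94.8%, 96.6% and 97.8% of cells and Jak1 in 100%. Ifngr2, the signalling chain of the interferon-gamma receptor, was the 1 of 8 receptor and kinase genes to pass the F test between sisters, at 0.269 (95% interval 0.135 to 0.393, adjusted p = 0.000591). The other receptor chains Ifnar1, Ifnar2 and Ifngr1 had 0.0605, 0.0486 and 0.0313.

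Of the other factors, Stat3 passed at 0.205 and Irf2 at 0.167. Of sensors and adaptors 4 of 9 passed: Cgas, the DNA sensor, at 0.357 (95% interval 0.229 to 0.472, adjusted p = 1.96e-06), Mavs, the adaptor of RIG-I and MDA5, at 0.256, Tmem173 (STING) at 0.204 and the kinase Tbk1 at 0.169. None of 7 genes that restrain the response and none of 6 antigen presentation genes passed. In the comparison of high with low sisters 0 genes of these 6 lists passed edgeR's test.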

How the data were processed

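The deposited tables hold counts, whole reads per gene and cell, and the authors deposited no normalized values. Per the submitters' processing notes, featureCounts from Subread 1.5.0 and SAMtools were used; the aligner and the build were not given in the sources used here. The 55450 gene identifiers are those of GENCODE M21 (GRCm38), which supplied symbols, exon lengths and positions. The deposited metadata tables hold labels of another kind (unit: other), including experiment, run, plate, well, colony and lysosome label. A further 171 count columns that match no listed sample were not used. Libraries holding identical counts numbered 0. Sisters always shared a plate and nearly always lay in adjacent wells.

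Summed counts of each experiment and lysosome label were fitted with edgeR 4.0.16 in R 4.3.3 (TMM, filterByExpr by label, which kept 12899 genes, quasi-likelihood F test, experiment as block, Benjamini-Hochberg, threshold 0.05). DESeq2 1.42.0 and limma 3.58.1 were alternatives. CPM, pseudocount 1, F tests and correlations were computed in Python 3.11.15 with scipy 1.17.1. Both scripts were tested on simulated data. Given in full were the 6 members with the smallest edgeR p, the 8 with the highest intraclass correlation, the 5 found in most cells and the 6 most correlated pairs; of the pathway lists, genes were named mainly by intraclass correlation, and others after their values were seen. The members and lists were chosen with earlier results of these data known. The labels do not say that experiments used separate animals, so p-values measure the spread between these cultures or divisions.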

Additional observations from a re-analysis of the deposited data

Results flagged for a closer look

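The level of Samd9l in experiment 72 lay apart from the other 8 experiments. It was 116.656 CPM there, against 81.3 CPM in the next highest and 55.3 CPM in the lowest experiment, a gap of 0.576 of the whole range where 0.493 is the 95% critical value of Dixon's test for 9 values. This was 1 of 35 such sets of 9 experiments checked, and chance alone flags about 1 in 20.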

How the results depend on the processing

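The count of members significantly alike between sisters depended on the choices made. It was 3 in the analysis given above, 7 with a pseudocount of 10 (27.9% of all genes), 2 with cell cycle scores regressed out (11.7% of all genes), 3 in run 4 alone (21.2% of all genes) and 0 in run 5 alone (10.3%), and 1 to 5 when each experiment was left out in turn (22.6% to 26.97% of all genes; 1 member without experiment 77, 5 without experiment 73). An exact sign-flip permutation test over the 9 experiments called 0 members and 0 of 11699 genes (4 members and 23.7% of genes at an unadjusted p under 0.05); its smallest p is 0.0039 and the smallest adjusted p of any gene was 0.0502. Scored only as present or absent, Trim30a turned from above 0 to -0.00199. It was found in both sisters in 98.5% of divisions, in 1 sister in 1.48% and in neither in 0%. That score hardly varies, so it cannot show likeness and is not read as a reversal. With genes found in at least 10% of cells, Ifit1 also passed, at 0.234 (adjusted p = 0.00352 by the F test over divisions). Over their settings the adjusted p ran from 0.000487 to 0.568 for Lgals3bp, 0.00467 to 0.296 for Irgm1 and 0.00405 to 0.328 for Ifi44. Leaving out each experiment in turn, the high against low comparison called 0 members each time, the median log2 difference of the members lay between 0.03 (without experiment 60) and 0.14 (without experiment 74) beside 0.09 with all, the score difference ran from 0.103 to 0.151 and the score's intraclass correlation from 0.208 to 0.285. The correction of the score difference for depth was chosen after seeing the data. Causes of these changes were not tested. The sisters of a division are paired by the metadata. The limma fit on their differences, which had no term for experiment, called 0 members.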
